A study of Homo sapiens with 2 samples.

Results

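Dual-specificity phosphatases (DUSPs) were followed in L-428, an established Hodgkin's lymphoma (HL) cell line, on 2 Affymetrix HG_133A microarrays. Every probe set that carries the symbol of DUSP1, DUSP2, DUSP3, DUSP4, DUSP5, DUSP6, DUSP7, DUSP10, DUSP11 or DUSP12 alone was taken. This gave 18 probe sets for the 10 genes, of 11963 genes with such a probe set and 22215 probe sets other than controls on the arrays, and no further probe set carried a member among several symbols. For 1 array the cells carried pcDNA6.2-GW/EmGFP-miR-neg, the vector control, and for the other pcDNA6.2-GW/EmGFP-miR-DUSP5, which expresses an artificial microRNA directed at DUSP5. Both populations went through transfection and carried the same EmGFP reporter backbone, and the share of transfected cells and the time of harvest are not given in the sources used here. Because each condition has 1 array, the differences below could not be set against a spread between cultures, and no p-value is given.

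DUSPs remove phosphate from both threonine and tyrosine of their targets. The typical members are mitogen-activated protein (MAP) kinase phosphatases that switch off ERK, JNK or p38 in the nucleus or the cytoplasm, and several of them are themselves induced by the kinases that they inactivate. Atypical members lack the kinase-binding domain, and some act on RNA or on other proteins. ERK is active in HL cells downstream of receptors of the tumor necrosis factor family, which makes its phosphatases part of the feedback on this pathway.

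Signal intensities were computed by the authors and scaled on each array to a target of 500, and a log2 ratio below is always knock-down over vector control. The SD attached to a ratio shows how far the ratios of a gene with several probe sets scatter, and it falls with the mean signal of both arrays. This SD, which is a probe error alone, was 1.19 when that mean was below 100, 0.73 at 100 to 200, 0.41 at 200 to 500, 0.36 at 500 to 1000, 0.30 at 1000 to 3000 and 0.26 for brighter probe sets. A signal also averages over all cells of a culture, so that fewer expressing cells and less RNA per cell cannot be told apart. Median signals of the arrays were 161 and 164. Of 10 Hodgkin cell line markers, 9 had a probe set whose mean signal reached 200, among them TNFRSF8 (CD30) and the chemokine CCL17, whereas CCL22 had none. Of the 13 probe sets of this list that passed, 3 were at least 1.5-fold higher and none lower, against 15.9% and 18.8% of all probe sets at this signal. No probe set of the T cell, myeloid or B cell markers reached that mean, and the highest single signals of these lists were 189, 104 and 187. The summed signals over the lists were 260 in control cells against 437 after knock-down for T cell markers (233 against 247 without CD3D, which gave 27.3 and 189), 202 against 233 for myeloid markers, and 674 against 628 for B cell markers. The part of these dim signals in the DUSP ratios was not tested.

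Of the 18 probe sets, 14 from 8 genes reached a mean signal of 200, and 10 of these 14 had a negative ratio, against 49.9% of all probe sets at this signal. Under the other scalings of the arrays 9 to 12 were negative, the 12 after centring, where 58.5% of all were. Averaged over its probe sets, 5 of the 8 genes had a negative ratio, DUSP5 among them. DUSP5, DUSP10 at both probe sets and DUSP4 at 1 of its 2 probe sets were lower by 1.5-fold or more. The single higher gene of the 8 was DUSP12. This makes 4 of 14 probe sets lower and 1 of 14 higher, while 18.8% of all 10184 probe sets at this signal were at least 1.5-fold lower and 15.9% at least 1.5-fold higher. The median log2 ratio was -0.32 for the 14 DUSP probe sets and 0.0013 for all 10184. The counts and the median include DUSP5, the target of the artificial microRNA, for which a lower signal was the aim of the design. The other lower probe sets come from DUSP10 and DUSP4 alone. At 2-fold, DUSP12 remained as 1 of 14 (4.61% of all probe sets were 2-fold higher) and no DUSP probe set was lower (7.39% of all). Measured against the probe error, 8 probe sets of 6 genes were lower by more than 1 SD and 2 probe sets of 2 genes were higher by more than 1 SD, against 28.6% and 27.0% of all probe sets. DUSP2 and DUSP7 had mean signals under 200 at all of their probe sets and stay outside these counts.

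**Figure D1:**
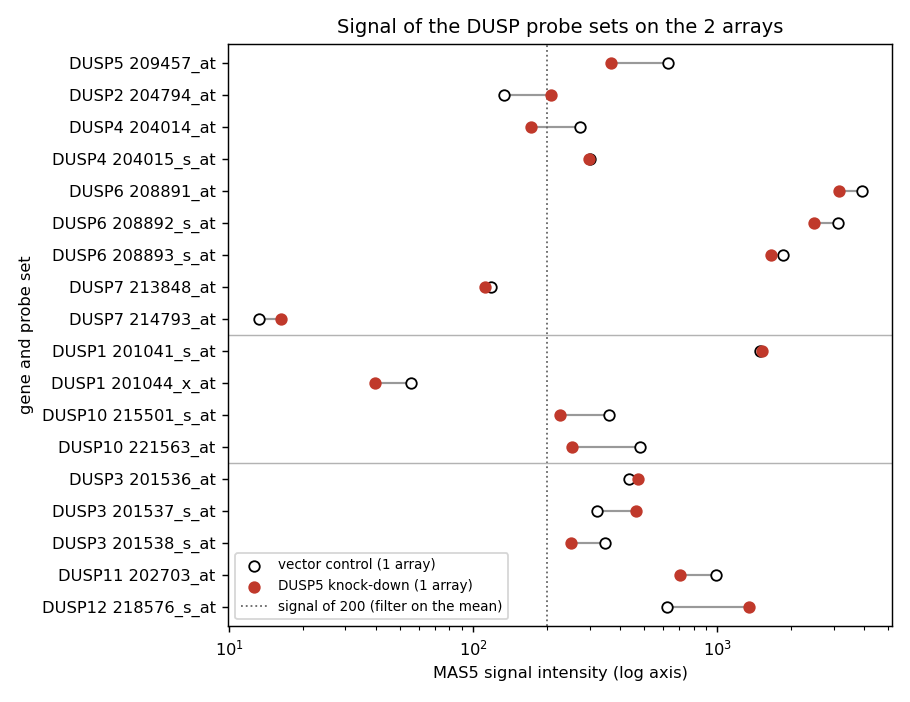
MAS5 signal intensity (horizontal log axis) of the 18 DUSP probe sets on the vector control array (open circles) and the DUSP5 knock-down array (red), with ERK phosphatases at the top, JNK and p38 phosphatases in the middle and other members at the bottom. DUSP5 went from 628 to 368 and DUSP12 from 623 to 1347, whereas the points of DUSP1 201041_s_at (1505 and 1532) lie on each other.

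DUSP5, DUSP4 and DUSP2 are nuclear phosphatases with ERK as a main substrate, DUSP5 being the most selective. DUSP5, the target of the artificial microRNA, has 1 probe set, 209457_at, with a signal intensity of 628 in control cells and 368 after knock-down. The remaining signal amounted to 58.6% and the log2 ratio to -0.77 (SD 0.41). The knock-down array was thus the lower for the targeted gene, in the direction that its label calls for, and a signal of 368 was left. DUSP5P1, the DUSP5 pseudogene, is not the symbol of any probe set used here, and whether its transcripts reach the probes of 209457_at could not be checked without the probe sequences.

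DUSP4, which acts on ERK and also on JNK, was past 1.5-fold at 1 of its 2 probe sets. The signal of 204014_at was 275 in control cells and 173 after knock-down, a log2 ratio of -0.67 (SD 0.41). The signal of 204015_s_at was 302 and 299, a log2 ratio of -0.01 (SD 0.41). The ratios were 0.66 apart, a little more than the joint SD of 0.58 for 2 probe sets at this signal. No change of DUSP4 as a gene can be read from them. DUSP2, an early response phosphatase of activated lymphocytes, had a signal of 134 in control cells and 209 after knock-down. Its log2 ratio of 0.64 was smaller than the SD of 0.73 at this signal.

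DUSP6 and DUSP7 are cytoplasmic phosphatases for ERK. DUSP6 (MKP3) is a feedback inhibitor that binds ERK tightly, and its transcription follows ERK activity in many cells. Its 3 probe sets lay closer to each other than those of any other member with several probe sets above a mean signal of 200, with ratios 0.16 apart on the log2 scale. The signal of 208891_at was 3931 in control cells and 3168 after knock-down (log2 ratio -0.31, SD 0.26). The signal of 208892_s_at was 3125 and 2498 (-0.32, SD 0.30). The signal of 208893_s_at was 1867 and 1665 (-0.16, SD 0.30). DUSP6 was therefore lower at all 3 probe sets, at 79.9% to 89.2% of control, and the first 2 ratios were only just larger than 1 SD. DUSP7 was dim, at 118 and 112 for 213848_at and at 13.2 and 16.4 for 214793_at. Its log2 ratios of -0.07 (SD 0.73) and 0.31 (SD 1.19) had opposite signs and were far inside the probe error.

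DUSP1 and DUSP10 were grouped by their preference for JNK and p38. DUSP10 (MKP5), found in both nucleus and cytoplasm, had the lowest ratio at its brightest probe set among the 10 genes, by less than the joint SD from DUSP5. The signal of 221563_at was 481 (control) and 255 (knock-down), or 52.9%, which makes a log2 ratio of -0.92 (SD 0.41). The signal of 215501_s_at was 359 and 227, or 63.2%, which makes a log2 ratio of -0.66 (SD 0.41). Both probe sets were lower by more than 1 SD and lay 0.26 apart. DUSP10, which the artificial microRNA was not directed at, thus had ratios on either side of that of DUSP5. DUSP5 minus DUSP10 was 0.15 and -0.11 on the log2 scale at the 2 probe sets, with a joint SD of 0.58. DUSP1 (MKP1), a nuclear phosphatase encoded by an immediate early gene, was almost the same on both arrays. Its probe set 201041_s_at had signals of 1505 (control) and 1532 (knock-down), a log2 ratio of 0.03 (SD 0.30). The second probe set, 201044_x_at, was close to the floor of the arrays with 55.4 and 39.7 (-0.48, SD 1.19), and nothing can be read from it. DUSP5 minus DUSP1 201041_s_at was -0.80 on the log2 scale (joint SD 0.51).

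**Figure D2:**
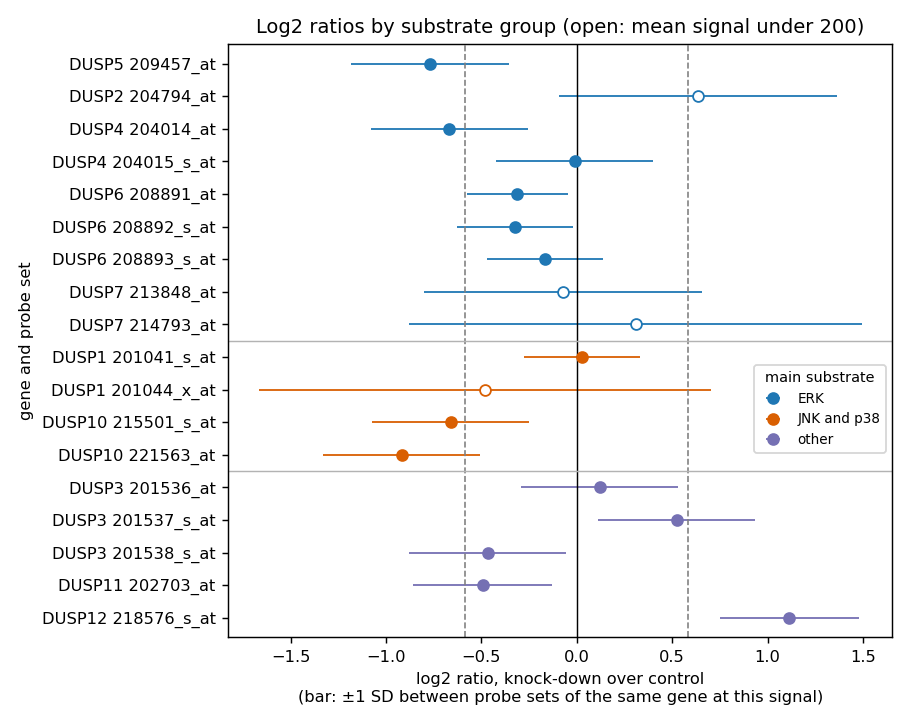
Log2 ratio of signal, knock-down over vector control, for the 18 DUSP probe sets by main substrate, with bars of ±1 SD of the probe error at their signal. Open points have a mean signal under 200, and dashed lines mark a 1.5-fold difference. Both DUSP10 points (-0.92 and -0.66) lie at the level of DUSP5 (-0.77), and DUSP12 (1.11) is the only filled point to the right of the dashed lines.

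DUSP3, DUSP11 and DUSP12 are atypical members. DUSP12, a zinc-binding phosphatase that takes part in the maturation of ribosomes, stood at the other end of the 10 genes. Its probe set 218576_s_at had signals of 623 (control) and 1347 (knock-down), or 216%, which makes a log2 ratio of 1.11 (SD 0.36). The ratio was larger than 3 SD, but this SD is a probe error, and 27.0% of all probe sets were higher by more than 1 SD. The share of all probe sets beyond 3 SD was not counted, and 4.61% of all were 2-fold higher. The DUSP12 ratio rests on 1 probe set of the type _s_at, which can match several transcripts. DUSP11 (PIR1), a nuclear enzyme that removes phosphate from the 5′ end of RNA, gave 992 and 705, or 71.1%, which makes a log2 ratio of -0.49 (SD 0.36). DUSP3 (VHR), which acts on ERK and JNK among other substrates, had 3 probe sets that did not agree. Its signals were 435 and 473 for 201536_at, a log2 ratio of 0.12. They were 323 and 463 for 201537_s_at, a log2 ratio of 0.52. They were 347 and 251 for 201538_s_at, a log2 ratio of -0.47. With a range of 0.99, against a joint SD of 0.58 for 2 probe sets at this signal, the DUSP3 probe sets disagreed most among the members. No direction can be given for the gene.

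The groups of main substrate and location follow general knowledge of these enzymes and not the files, and DUSP3, which also acts on ERK, was placed with the other members. Grouped by substrate, the kept probe sets of ERK phosphatases (3 genes) were all 6 at or below a ratio of -0.01, with a median log2 ratio of -0.32, 2 of them at least 1.5-fold lower and none higher, although DUSP4 204015_s_at turned to 0.05 after quantile normalization. Those of JNK and p38 phosphatases (2 genes) had a median of -0.66, with 2 of 3 lower, both of them DUSP10. Those of the other members (3 genes) had a median of 0.12, with none of 5 lower and 1 higher. Grouped by location, the nuclear members had a median of -0.49 over 5 probe sets of 4 genes, with 2 lower. The cytoplasmic members were represented by DUSP6 alone, with a median of -0.31 over 3 probe sets and none past 1.5-fold. The members found in both compartments had a median of -0.17 over 6 probe sets, with 2 lower and 1 higher. The 9 kept probe sets of typical members had a median of -0.32 with 4 lower, DUSP5 among them, and none higher. The 5 of atypical members had a median of 0.12. Each group holds 1 to 5 genes with probe sets that share a target, so that the medians describe these genes and were not tested against each other.

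All 4 lower probe sets were among the 8 DUSP probe sets with mean signals from 200 to 500, where 18.7% of 3951 probe sets were that much lower and 15.3% higher. None of the 4 DUSP probe sets with a mean signal above 1000, which belong to DUSP1 and DUSP6, was past 1.5-fold in either direction, where 15.3% of all probe sets were higher and 20.5% lower from 1000 to 3000, and 26.2% higher and 7.40% lower above 3000. With 4 probe sets, a count of 0 differs little from these shares. Ordered by the ratio at the brightest probe set of each gene, the 10 genes ran from DUSP12 (1.11) over DUSP2 (0.64), DUSP3 (0.12), DUSP1 (0.03), DUSP4 (-0.01), DUSP7 (-0.07), DUSP6 (-0.31), DUSP11 (-0.49) and DUSP5 (-0.77) to DUSP10 (-0.92). No neighbouring pair in this order differed by more than its joint SD, the widest gap being 0.52 between DUSP2 and DUSP3 (joint SD 0.84). Farther apart, DUSP5 minus DUSP12 was -1.88 (joint SD 0.55), and DUSP5 minus DUSP6 208891_at was -0.46 (joint SD 0.49).

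**Figure D3:**
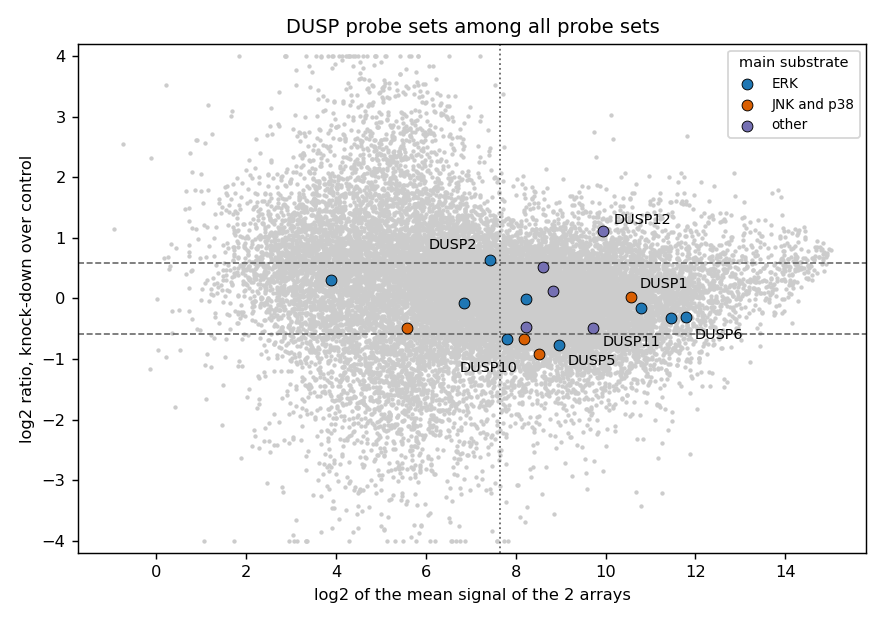
Log2 ratio (knock-down over control) against the log2 of the mean signal for 22215 probe sets (grey) and the 18 DUSP probe sets, coloured by main substrate. The dotted line marks a mean signal of 200, the dashed lines a 1.5-fold difference, and 57 probe sets beyond a ratio of 4 in either direction are drawn at the edge. All DUSP points lie within the grey cloud, with DUSP12 (1.11) and DUSP10 (-0.92) outermost.

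Other ways of scaling the 2 arrays left the highest and lowest of the kept ratios in place. Under quantile normalization, subtraction of a lowess fit, centring on the median and addition of 32 to each signal, DUSP5 stayed between -0.89 and -0.69, DUSP10 221563_at between -1.04 and -0.84, DUSP10 215501_s_at between -0.79 and -0.60 and DUSP12 between 0.99 and 1.21. These 4 probe sets were past 1.5-fold in all 5 scalings. DUSP4 204014_at was not, with -0.58 after addition of 32. DUSP6 remained below 0 at all 3 probe sets in each of them, from -0.45 to -0.12. Among the 14 kept probe sets, the sign turned at 3 with ratios near 0, which were DUSP1 201041_s_at (-0.10 to 0.10), DUSP4 204015_s_at (-0.14 to 0.05) and DUSP3 201536_at (-0.01 to 0.18). It also turned at the dim DUSP7 214793_at, from 0.31 to -0.05 after quantile normalization and -0.12 after the lowess fit. Centring, which subtracts the 0.12 by which the median of all probe sets lay above 0, moved every ratio down and added DUSP11 (-0.62) and DUSP3 201538_s_at (-0.59) to the lower ones. GAPDH, the reference gene of the study's quantitative RT-PCR, was higher on the knock-down array by 0.94 to 1.12 at its 3 probe sets, and ratios relative to GAPDH would be lower by about that amount for every member. ACTB, another reference gene, was higher too, by 0.76 and 0.80.

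**Figure D4:**
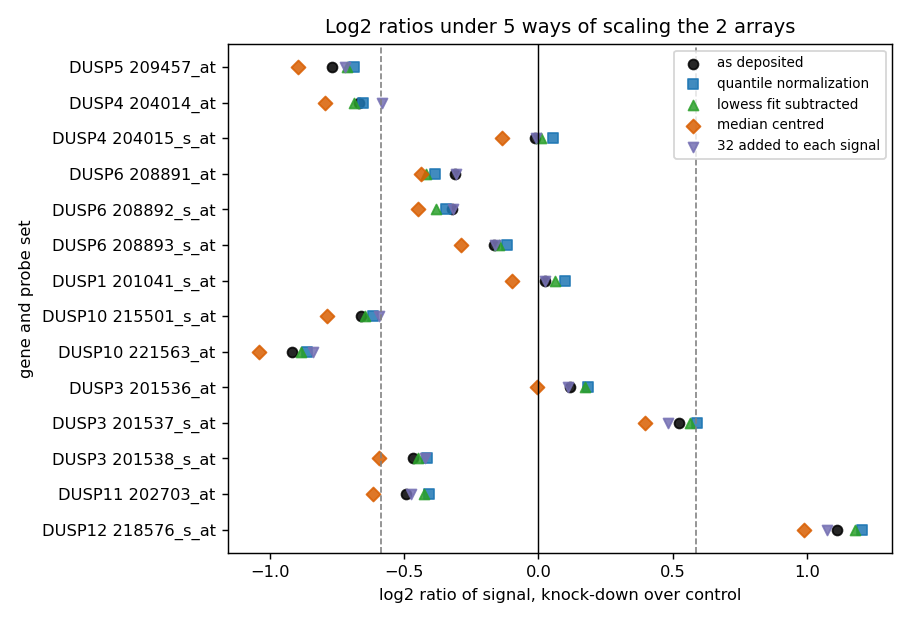
Log2 ratio (knock-down over control) of the 14 DUSP probe sets that reached a mean signal of 200, as deposited and under 4 other scalings of the 2 arrays, with dashed lines at a 1.5-fold difference. DUSP5, both probe sets of DUSP10 and DUSP12 keep to the outer side of the dashed lines under every scaling.

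Promoter sequences of 7 of the 10 genes were taken from RefSeq (GRCh38.p14), 9 start sites in all, since DUSP10 and DUSP11 have several. DUSP4, DUSP5 and DUSP12 had no entry. The 250 bases before each start were searched on both strands for sites of factors through which MAP kinase signals and HL transcription factors act. DUSP1, DUSP6 and DUSP10 are shown, 5′ to 3′ on the minus strand, because DUSP1 had nearly equal signals on both arrays while DUSP6 and DUSP10 were lower at all of their probe sets. Capitals mark the cyclic AMP response element (CRE), E-box and TATA box of DUSP1, and the other sequences hold none of the motifs searched.
DUSP1, chr5:172771196-172771445: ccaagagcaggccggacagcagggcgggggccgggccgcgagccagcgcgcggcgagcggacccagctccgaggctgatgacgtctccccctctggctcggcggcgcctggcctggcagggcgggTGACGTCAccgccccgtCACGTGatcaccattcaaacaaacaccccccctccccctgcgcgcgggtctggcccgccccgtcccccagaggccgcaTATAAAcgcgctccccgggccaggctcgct
DUSP6, chr12:89352502-89352751: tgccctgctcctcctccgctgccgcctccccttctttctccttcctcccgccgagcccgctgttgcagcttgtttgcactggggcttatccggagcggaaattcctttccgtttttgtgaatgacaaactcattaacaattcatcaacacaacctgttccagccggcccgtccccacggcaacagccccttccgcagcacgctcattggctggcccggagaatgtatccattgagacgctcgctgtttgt
DUSP10, chr1:221742090-221742339: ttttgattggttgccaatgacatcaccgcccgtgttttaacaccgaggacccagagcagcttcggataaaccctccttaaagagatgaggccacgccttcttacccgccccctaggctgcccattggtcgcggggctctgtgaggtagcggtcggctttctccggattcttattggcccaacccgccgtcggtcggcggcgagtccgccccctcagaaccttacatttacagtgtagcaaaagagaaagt

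The full CRE, TGACGTCA, was found in DUSP1 alone, from 125 to 118 bases before the start, and in 1.65% of all 35116 promoters. The E-box CACGTG, the site of MYC and related factors, was found in DUSP1 and DUSP2 and in 6.34% of all promoters. DUSP1 was also the only one of the 7 genes with the TATA box TATAAA, found 30 to 25 bases before the start. Of all promoters, 10.7% hold these letters anywhere in the 250 bases. Within 20 to 40 bases before the start, 387 promoters of the plus strand and 420 of the minus strand hold them, of the same 35116. A site for NF-kB, the factor that is constitutively active in L-428, was found by its consensus upstream of DUSP11 and DUSP7, and in 9.96% of all promoters. The AP-1 site TGANTCA (6.57% of all) and the ETS site CCGGAAG (8.52%) were in none of the 7 genes searched. Nor was the serum response CArG box (1.16%). With 9 start sites, a count of 0 differs little from these shares, and it says nothing about sites outside this window. The GC content ranged from 47.2% at a start of DUSP11 to 78.4% at DUSP7, with a median of 58.0% over all promoters. DUSP1 and DUSP2, which share the E-box, had ratios of 0.03 and 0.64, and DUSP11 and DUSP7, which share the NF-kB site, had ratios of -0.49 and -0.07 at their brighter probe sets. These matches describe letters in a window and were not tested against the signals.

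The kinases on which these phosphatases act and the enzymes that share the task were read from lists of other genes. Of 9 MAP kinases, 7 had a probe set with 1 symbol and 5 reached a mean signal of 200. Of their 7 probe sets there, 1 was at least 1.5-fold higher and none lower, against 15.9% and 18.8% of all probe sets. The higher one was MAPK10 (JNK3), with 208 in control cells and 359 after knock-down and a log2 ratio of 0.79 (SD 0.41). Of 14 genes listed as phosphatases of MAP kinases outside the DUSP family, 11 were measured at 18 probe sets, with a median of -0.27. The list includes subunits of protein phosphatase 2A that are not catalytic. Of the 18 probe sets, 2 were higher and 5 lower, against the same 15.9% and 18.8%. Both higher ones belong to the scaffold subunits PPP2R1A and PPP2R1B. PPP2CB, a catalytic subunit of protein phosphatase 2A, had the lowest ratio of them, with 1942 in control cells and 815 after knock-down (-1.25, SD 0.30).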

How the data were processed

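RNA of L-428 cells was hybridised to HG_133A arrays, 1 per condition. The intensities in the deposited table are on a linear scale. The authors obtained them in Expression Console by MicroarraySuite (MAS5, also named in the submitters' processing notes), with 500 as the target intensity of each array. They come without detection calls. Gene names came from the platform annotation, checked by gene identifier, because RefSeq lists DUSP1 as a synonym of DUSP12.

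From the deposited intensities the log2 ratio of knock-down over control was computed. Counts at 1.5-fold took in probe sets whose mean signal reached 200. The SD of a ratio came from pairs of probe sets of the same gene within the same band of mean signal. All members and all listed further DUSP genes with a probe set are named, and of the other phosphatase and kinase lists up to 3 genes past 1.5-fold in each direction. Every listed subunit of protein phosphatase 2A with a probe set is named as well. With 2 arrays a gene's pattern is 1 ratio, so no gene was named for a pattern like that of DUSP5. The members and lists were chosen with earlier results of these data known. Alternatives were quantile normalization, a lowess fit (span 0.3), centring, addition of 32, no filter, a minimum of 500, 2-fold, gene means, and removal of the types _s_at and _x_at. The steps were tested on simulated data. Python 3.11.15, numpy 2.4.6, pandas 2.3.3, statsmodels 0.14.6 and matplotlib 3.10.9 were used. The number of arrays limits the precision.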

Additional observations from a re-analysis of the deposited data

How the results depend on the processing

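The 4 lower and 1 higher DUSP probe sets and their median log2 ratio of -0.32 depended on the settings as follows. Without the probe set types _s_at and _x_at, 6 probe sets remained, with a median of -0.58, 3 lower (DUSP4, DUSP5 and DUSP10) and 0 higher, since the probe set of DUSP12 is of that type. Of all 4465 probe sets so kept, 21.2% were lower and 14.6% higher, with a median of -0.049. With 500 as the lowest mean signal, 6 probe sets remained and 0 were lower, because DUSP5, with a mean signal of 498, DUSP4 and DUSP10 then dropped out. At 2-fold 0 were lower. Quantile normalization gave 2 higher, the second being DUSP3 201537_s_at at 0.59, and no filter gave 2 higher, the second being DUSP2, among 18 probe sets, where 26.2% of all 22215 were higher. Centring moved the median to -0.44 by construction, and with it 23.8% of all probe sets were lower and 11.3% higher. The median lay between -0.58 and -0.24 in all settings. All 72 values of single probe sets under 4 scalings moved by less than their SD, which is a probe error and no measure of scaling. Centring could not have moved any of them by more, since it shifts every ratio by 0.12 and the smallest SD is 0.26. No paired analysis was possible because there was a lone array on either side. Signals close to background limit what can be said of DUSP2, DUSP7 and the dimmer DUSP1 probe set.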

Other observations

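Of 17 further names of DUSP and STYX genes, 8 had a probe set with 1 symbol, and 3 of these reached a mean signal of 200. All 3 were lower on the knock-down array, as were 49.9% of all probe sets at this signal. None of the 3 was lower by 1.5-fold, and their median log2 ratio was -0.48. DUSP22, an atypical phosphatase, had signals of 1374 (control) and 986 (knock-down) (-0.48, SD 0.30). STYXL1, a catalytically inactive relative, gave 907 and 631 (-0.52, SD 0.36), and DUSP14 gave 476 and 365 (-0.38, SD 0.41). Among the dim ones, DUSP8, which like DUSP10 acts on JNK and p38, gave 235 and 73.7, a log2 ratio of -1.68 (SD 0.73). DUSP9, the third cytoplasmic ERK phosphatase beside DUSP6 and DUSP7, gave 158 and 198 (0.33, SD 0.73), and DUSP13B gave 151 and 189 (0.32, SD 0.73). DUSP26 (29.6 and 41.3) and DUSP21 (7.59 and 15.4) were too dim for a ratio to be read.

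Outside the DUSP family, protein phosphatase 2A did not move as a unit. PPP2CB, one of its catalytic subunits, was lower (-1.25, SD 0.30), while the scaffold subunits PPP2R1A (0.71, SD 0.30) and PPP2R1B (1.15, SD 0.41 at 202884_s_at) were higher. The other probe sets of PPP2R1B with a mean signal of at least 200 gave 0.10 and 0.20. The other catalytic subunit, PPP2CA, was brighter than PPP2CB, with 4029 in control cells and 4215 after knock-down (0.06, SD 0.26). The regulatory subunits PPP2R2A (-0.43, SD 0.30) and PPP2R5C (0.06, 0.30 and -0.20) were not past 1.5-fold either. The phosphatase PPM1A, which acts on p38 and JNK, was lower at both probe sets (-1.13, SD 0.41 and -0.64, SD 0.30). PTPN2, a tyrosine phosphatase of JAK and STAT proteins, gave -0.98 (SD 0.36) at its brightest probe set and -0.43 (SD 0.41) at the next.

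Of 22 listed genes from other classes of dual-specificity phosphatases, 16 were measured at 35 probe sets, with a median of -0.11. By 1.5-fold or more, 4 were higher and 9 lower, against 15.9% and 18.8% of all probe sets at this signal. PTP4A3, a prenylated phosphatase linked to metastasis, gave 340 and 95.6 at 206574_s_at (-1.83, SD 0.41) and -0.48 at 209695_at. MTM1, a phosphatase of inositol lipids mutated in myotubular myopathy, was lower at both probe sets (-1.08 and -1.02, SD 0.41). PTP4A1 had ratios from -1.02 to 0.03 at its 4 probe sets. RNGTT, the capping enzyme of messenger RNA, was higher at 211387_x_at (0.94, SD 0.41) and below 0 at its other 3 probe sets, MTMR2 was highest at 214649_s_at (0.76, SD 0.41), and CDC25C, an activator of entry into mitosis, gave 227 and 380 (0.74, SD 0.41).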
